A study of Mus musculus with 4 samples.

Results

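The genes described here are chemokines, chemokine receptors and inflammatory cytokines. The set lists 35 genes, 22 chemokines, 7 receptors and 6 cytokines, chosen by gene name with earlier results of these data known. Their probes are those labelled with a RefSeq transcript of a listed gene. On that rule 34 genes had a probe, with 47 probes between them, among 23462 genes that could be named on the array. Cxcl11 had no probe under its accession in the RefSeq gene table used for naming and is given no value.

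Cy5-labelled RNA from whole liver of male mice was hybridized to 1-colour Agilent arrays. The combination group was aged mice of a type 2 diabetes model given astragalus polysaccharide, a plant carbohydrate preparation, together with the glucose-lowering drug metformin. The metformin group was the same model given metformin alone, the diabetic group was the untreated model, and the control group was naturally aged mice without drug. Each group had 1 array, and all samples carry the mark 60 d without a statement of what it counts from. The labels do not state strain, age, how diabetes was produced or whether mice were pooled. With 1 array per group there is no replicate check. Every difference below is one between 2 single arrays and has no p-value.

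Chemokines are small secreted proteins that steer leukocytes along concentration gradients by binding G-protein-coupled receptors on the cell surface. In liver they come from Kupffer cells (the resident macrophages), endothelial cells, stellate cells and hepatocytes, and they set which blood leukocytes enter the organ. Interleukin-1, tumour necrosis factor and interleukin-6 are cytokines that switch on many chemokine genes through the transcription factor NF-kB, and interferons switch on others through STAT proteins.

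The promoters of 4 CXC chemokine genes on chromosome 5 are shown because the genes form neighbouring pairs, Cxcl1 beside Cxcl2 and Cxcl9 beside Cxcl10, and are textbook targets of NF-kB and interferon signalling. Each sequence is the 250 bases before the annotated start, 5′ to 3′ on the gene's strand, from RefSeq on GRCm38.p6: chr5:90890995-90891244 (plus strand) for Cxcl1, chr5:90903649-90903898 (plus) for Cxcl2, chr5:92328080-92328329 (minus) for Cxcl9 and chr5:92348890-92349139 (minus) for Cxcl10. Capitals mark matches on either strand to GGNNTTTCC, a form of the NF-kB site, or to GAAANNGAA, a form of the interferon-stimulated response element.
Cxcl1: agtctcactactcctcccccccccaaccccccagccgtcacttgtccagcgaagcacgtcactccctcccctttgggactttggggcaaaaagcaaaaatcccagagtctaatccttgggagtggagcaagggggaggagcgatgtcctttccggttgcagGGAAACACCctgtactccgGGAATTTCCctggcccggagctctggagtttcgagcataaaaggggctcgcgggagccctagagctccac
Cxcl2: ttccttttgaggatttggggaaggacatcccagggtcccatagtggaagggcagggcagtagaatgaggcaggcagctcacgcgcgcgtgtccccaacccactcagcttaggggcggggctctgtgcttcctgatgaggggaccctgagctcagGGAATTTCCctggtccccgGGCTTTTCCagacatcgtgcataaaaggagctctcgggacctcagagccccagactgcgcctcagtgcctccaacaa
Cxcl9: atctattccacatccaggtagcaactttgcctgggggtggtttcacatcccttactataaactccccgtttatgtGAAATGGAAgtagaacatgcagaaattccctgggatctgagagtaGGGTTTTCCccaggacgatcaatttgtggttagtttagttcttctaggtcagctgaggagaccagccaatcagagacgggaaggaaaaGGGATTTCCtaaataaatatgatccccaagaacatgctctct
Cxcl10: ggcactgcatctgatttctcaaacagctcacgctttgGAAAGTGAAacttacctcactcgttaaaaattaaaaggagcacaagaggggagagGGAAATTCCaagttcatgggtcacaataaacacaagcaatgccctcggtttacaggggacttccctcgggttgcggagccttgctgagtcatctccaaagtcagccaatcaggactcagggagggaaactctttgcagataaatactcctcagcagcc

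Counted from the start, with -1 as the base before it, the NF-kB letters began at -89 and -70 in Cxcl1, at -96 and -77 in Cxcl2, at -130 and -42 in Cxcl9 and at -158 in Cxcl10. The response-element letters began at -175 in Cxcl9 and at -213 in Cxcl10. No match to one motif overlapped a match to the other. The table held promoters of 26 members. The NF-kB letters were found in 6 of them (also in Ccl9 and Il6), against 4.93% of 32851 windows of the same length over all genes. The response-element letters were also found in 6 (Ccl19, Ccl3, Ccr2 and Cxcl14 beside the pair above), against 7.13% of windows. TTCNNNGAA, a form of the STAT site, was found in Ccl17 and Cxcl14, against 7.02% of windows. These matches describe letters only.

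Signals are given in scaled intensity units. Each array was scaled so that the 75th percentile of 24363 probes above background on all 4 arrays stood at the same signal, 7446.5 units. Ratios of scaled signals of 1 probe are therefore folds, and signals of different probes are not compared. Probes spotted 10 times on every array gave a technical SD for a log2 difference of 0.237 to 0.313 below 300 units, of 0.147 to 0.171 from 300 to 3000 units and of 0.0974 to 0.107 above that. These 3 ranges rest on 3 to 5, 13 to 16 and 271 to 279 probes per array, so the lowest is itself rough. The technical SD covers neither the variation among animals nor that of extraction and hybridization, and members have 1 spot per probe. No spot was saturated. Spots marked as outliers by the scanner software were left out, at 2.18%, 5.35%, 4.66% and 3.31% of spots on the combination, metformin, diabetic and control arrays. Of 8 hepatocyte markers, such as Alb and Ttr, 7 were above background on each array.

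More members were detected on the metformin array than on the others. Above background were 24 members on the combination array, 31 on the metformin, 24 on the diabetic and 24 on the control array. That is 93.9% of members with a usable spot on the metformin array against 70.4% of all named genes there, while the other arrays had 70.6% to 72.7% of members and 62.9% to 66.6% of genes. In whole tissue, more cells of a type and more RNA per cell cannot be told apart. Across all arrays 22 members were above background on every one, and 32 on at least 1. Ccl22 and Il10 were below background throughout. Of 33 members with a usable spot on every array, 6 were above background on the metformin array alone (Ccl7, Cxcl2, Ccr1, Ccr7, Cxcr3 and Il6), and none on any other array alone. Over all 22098 genes with such spots, 4.28% were seen on the metformin array alone and 0.72% to 0.86% on each other array alone.

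**Figure D1:**
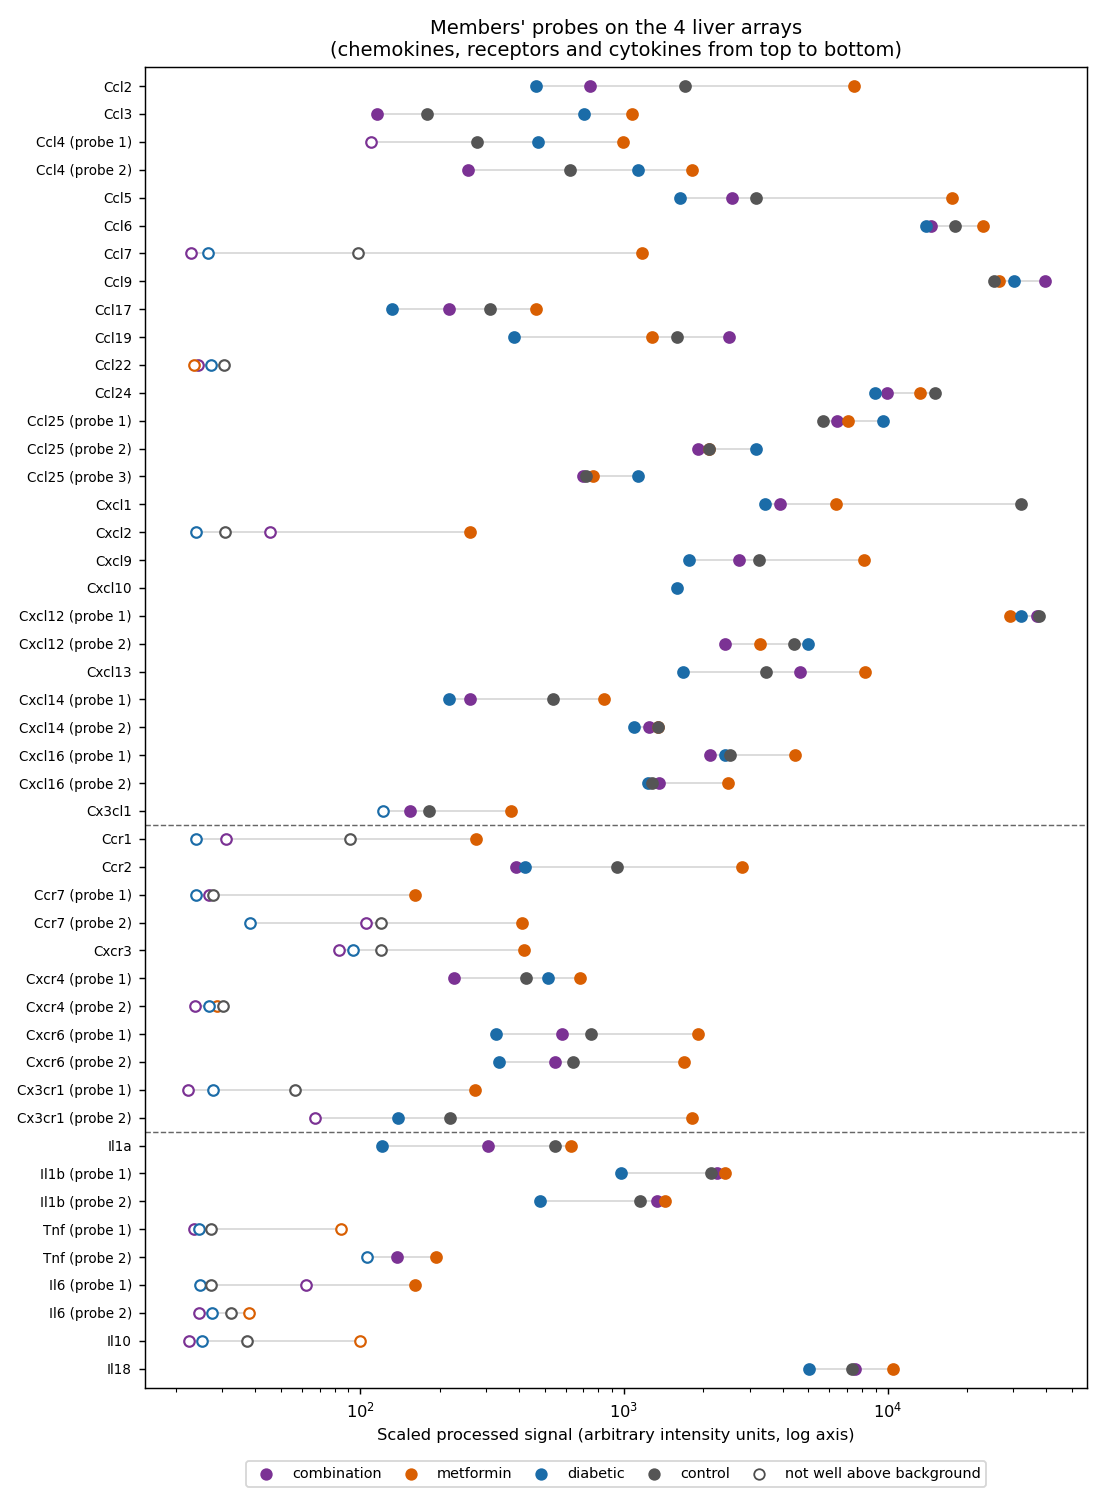
Scaled processed signal (log axis) of each member probe on the combination, metformin, diabetic and control arrays, with 1 point per array and open points for probes not well above background. The metformin point lies furthest right for most probes, Cxcl1 has its highest signal on the control array (32170 units), and Ccl9 hardly moves.

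The monocyte-attracting pair Ccl2 and Ccl7, which bind the receptor Ccr2 and lie side by side on chromosome 11, were brightest on the metformin array. Ccl2 had 745.7 units on the combination array and 7439 on the metformin array, against 464.3 on the diabetic and 1700 on the control array. It was thus 16.0-fold higher with metformin than in the diabetic liver, 4.38-fold higher than in control, and 9.98-fold lower with the combination than with metformin. Ccl7 was above background only on the metformin array, at 1175 units, which is at least 10.2-fold over the diabetic and at least 8.73-fold over the control array. The combination array was at least 10.6-fold lower than the metformin array for Ccl7. Their receptor gene Ccr2, carried by inflammatory monocytes, had 390.5, 2806, 419.4 and 942.1 units on the combination, metformin, diabetic and control arrays. The metformin array was highest for it, 6.69-fold over diabetic, and the control array came next. The combination and diabetic arrays were both over 2-fold below control and 1.07-fold apart. Monocyte markers without Ccr2 gave summed signals of 41520, 54380, 41250 and 39470 units in the same order over 5 genes seen on every array. Single monocyte markers moved more than this sum. For combination over metformin 2 of 5 were at least 2-fold lower (median -0.78), Chil3 by 12.4-fold and F13a1 by 4.27-fold, and for metformin over control 3 of 5 were at least 2-fold higher (median 1.33). Of the 7 markers in that list 6 were above background on each array, and their part in these results was not tested.

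The macrophage inflammatory proteins Ccl3 and Ccl4, attractants of monocytes and T cells, followed another order. Ccl3 had 115.6 units on the combination array, 1072 on the metformin array, 704.7 on the diabetic array and 179.5 on the control array. Both probes of Ccl4 ran the same way, one with 255.5, 1806, 1126 and 621.9 units and the other with 109.5 (not above background), 989.3, 472.5 and 276.3. For both genes the metformin and diabetic arrays were high and the control and combination arrays low, with the combination lowest. Ccl3 was 3.93-fold higher in the diabetic than in the control liver and 6.10-fold lower with the combination than in the diabetic liver. Its combination and control signals lay below 300 units, where differences are least precise. Ccl4 was 1.76-fold higher in diabetic than control liver and 4.41-fold lower with the combination than in the diabetic liver. Macrophage markers (Kupffer cell and macrophage list, 12 of 14 genes on every array) summed to 130800 units with the combination, 214800 with metformin, 151800 in the diabetic and 223400 in the control liver. For combination over diabetic 1 of 13 was at least 2-fold higher and 2 were lower (median -0.19), and their part was not tested.

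Ccl5, Ccl6 and Ccl9 lie in the same chromosome 11 cluster as Ccl3 and Ccl4. Ccl5, a T cell and monocyte attractant made largely by lymphocytes, had 2576 units with the combination, 17570 with metformin, 1629 in the diabetic and 3173 in the control liver. The metformin array was 10.8-fold over the diabetic and 5.54-fold over the control array for Ccl5, and the combination was 6.82-fold below metformin. Ccl6, a macrophage chemokine of rodents, had 14660, 23060, 13980 and 18070 units in that order of arrays. Ccl9, a related rodent chemokine, had 39380, 26550, 30180 and 25250 units. Neither moved by 2-fold: Ccl6 differed by at most 1.65-fold and Ccl9 by at most 1.56-fold across the 6 comparisons. Among these 3 cluster neighbours only Ccl5 passed 2-fold, in the 3 comparisons that involve the metformin array.

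Cxcl1 and Cxcl2 attract neutrophils through Cxcr2. Cxcl1 had 3893 units with the combination, 6394 with metformin, 3420 in the diabetic and 32170 in the control liver. It was therefore 8.26-fold lower with the combination, 5.03-fold lower with metformin and 9.41-fold lower in the diabetic than in the control liver, and the 3 diabetic-model arrays lay within 1.87-fold of each other. Cxcl2, its neighbour, was above background only with metformin, at 261.1 units, at least 2.26-fold over the diabetic and at least 1.94-fold over the control array. The control array, highest for Cxcl1, was below background for Cxcl2. Summed neutrophil markers (5 of 10 genes on every array) were 49530, 48100, 45770 and 65040 units on the combination, metformin, diabetic and control arrays. Single genes moved more than that sum. The list had 5 of 6 measured genes at least 2-fold lower for combination over control (median -2.04), among them Camp (6.59-fold), S100a8 (5.23-fold) and S100a9 (4.74-fold). For metformin over control 2 of 7 were at least 2-fold lower (median -0.77), and for diabetic over control 2 of 8 were lower and 1 higher (median -0.55). On the combination, metformin, diabetic and control arrays 6, 7, 8 and 10 of the 10 were above background. Acinar pancreas genes summed to 14910, 34520, 21620 and 90780 units over the 3 genes seen on every array, highest on the control array. Gene by gene the gap was wider: for combination over control all 3 measured were at least 2-fold lower (median -7.10), for metformin over control 8 of 9 (median -2.05), and for diabetic over control 8 of 9 (median -4.69), with Amy2b 104-fold lower. Of 10 such genes 4, 9, 10 and 9 were above background on the combination, metformin, diabetic and control arrays. The part of either list in the Cxcl1 signal was not tested.

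Cxcl9, Cxcl10 and Cxcl11 are interferon-induced ligands of Cxcr3, a receptor of activated T cells and NK cells. Cxcl9 had 2727 units with the combination, 8143 with metformin, 1766 in the diabetic and 3245 in the control liver. The metformin array was 4.61-fold over the diabetic and 2.51-fold over the control array. The combination array was 2.99-fold below metformin and 1.54-fold over diabetic. Cxcl10 kept its spot only on the diabetic array, at 1591 units, and so has no difference. Cxcr3 was above background only with metformin, at 416.6 units, which is at least 3.61-fold over diabetic and at least 3.09-fold over control.

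Cxcl16 and Cxcr6, a membrane-bound ligand and the receptor that liver-resident T cells and NKT cells carry, were both measured by 2 probes on every array. Cxcl16 had 2119, 4437, 2418 and 2532 units by one probe on the combination, metformin, diabetic and control arrays, and 1361, 2486, 1229 and 1278 by the other. The Cxcl16 probes differed in the sign of the small gap between combination and diabetic, with log2 values of -0.191 and 0.148. Cxcr6 had 583.8, 1911, 326.4 and 752.7 units by one probe and 547.8, 1686, 334.4 and 641.9 by the other. Metformin was highest for both, with Cxcl16 1.93-fold and Cxcr6 5.43-fold over diabetic. Markers of T and NK cells went in the same order as Cxcr6, Cxcl9 and Ccl5. Their sum over 9 genes seen on every array was 5190 units with the combination, 17670 with metformin, 3804 in the diabetic and 7851 in the control liver. Of 12 markers 10, 11, 10 and 11 were above background on the combination, metformin, diabetic and control arrays. Klrb1c was above it on none, and the part of these cells in the chemokine signals was not tested.

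Ccl19 and Cxcl13 organise lymphoid tissue. Ccl19 draws Ccr7-bearing dendritic and T cells, and Cxcl13 draws B cells. Ccl19 had 2498 units with the combination, 1277 with metformin, 384.1 in the diabetic and 1593 in the control liver. The diabetic array was low and the combination array highest, 6.50-fold over diabetic, so that Ccl19 is the member furthest above the diabetic liver under the combination. Cxcl13 had 4656, 8177, 1680 and 3465 units on the combination, metformin, diabetic and control arrays. It too was lowest in the diabetic liver, by 2.77-fold against the combination, 4.87-fold against metformin and 2.06-fold against control. Ccr7 was above background only with metformin, at 161.5 and 412.1 units by its 2 probes, at least 1.40-fold and 3.57-fold over diabetic. Of 7 B and plasma cell markers 4, 5, 4 and 4 were above background in that order of arrays, and Cd79a was above it on none. Their summed signal over 4 genes was 10660, 10280, 9242 and 13630 units, but single B and plasma cell genes moved more than this. For metformin over diabetic 2 of 4 were at least 2-fold higher (median 0.91), and none was lower. For combination over metformin 2 of 4 were at least 2-fold lower (median -0.91), and none was higher. The part of these cells was not tested.

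The other chemokines moved less or were dim. Ccl17, a ligand of Ccr4 on regulatory and type 2 helper T cells, had 216, 464.2, 131.9 and 309.1 units on the combination, metformin, diabetic and control arrays, 3.52-fold higher with metformin than in the diabetic liver. Its chromosome 8 neighbour Cx3cl1, a tethered ligand of Cx3cr1, had 153.9, 371.7, 121.5 and 181.9 units and was not above background on the diabetic array. Metformin was at least 3.06-fold over diabetic for it, and the combination 2.42-fold below metformin. Ccl24, an eosinophil attractant, had 9980, 13320, 8951 and 15160 units, and Ccl25, an attractant of gut-homing T cells, differed by at most 1.59-fold. Neither passed 2-fold in any comparison.

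Cxcl12 and Cxcl14 each had 2 probes that disagreed. Cxcl12, the Cxcr4 ligand of stromal and endothelial cells, had 36700, 29200, 32040 and 37390 units on the combination, metformin, diabetic and control arrays by a probe labelled with transcript NM_001012477. A probe labelled NM_021704 gave 2425, 3293, 4984 and 4415 units, so the combination differed from diabetic by a log2 value of 0.20 on one probe and of -1.04 on the other. Cxcl14, an epithelial and stromal chemokine, had 259.6, 837.4, 216.5 and 538.4 units by one probe and 1245, 1345, 1089 and 1340 by the other. The gap between metformin and diabetic was 1.95 in log2 on the first and 0.31 on the second, so the gene's mean of 1.13 rests on 1 probe.

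Among the remaining receptors, Cx3cr1 differed widely between the combination and metformin. This receptor marks patrolling monocytes and some tissue macrophages. One of its 2 probes had 67.19 units (not above background) with the combination, 1809 with metformin, 138.4 in the diabetic and 218.3 in the control liver. Metformin was 13.1-fold over diabetic and 8.29-fold over control by that probe, and the combination at least 16.3-fold below metformin. The second Cx3cr1 probe was above background only with metformin, at 272.4 units. Ccr1, a receptor for Ccl3 and Ccl5 on myeloid cells, was above background only with metformin, at 273.7 units and at least 2.37-fold over diabetic. Cxcr4, which holds leukocytes and progenitors near Cxcl12, had 226.3 units with the combination, 680.2 with metformin, 516.6 in the diabetic and 426.3 in the control liver by 1 probe, while its other probe was below background throughout. The combination was the low array for Cxcr4, 2.28-fold below diabetic and 3.01-fold below metformin.

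The interleukin-1 genes separated the diabetic array from the other 3. Il1a, an alarm cytokine released by damaged cells, had 303.7 units with the combination, 631.4 with metformin, 120.9 in the diabetic and 548.1 in the control liver. Il1b, which inflammasome-activated macrophages secrete, had 2252, 2417, 977.6 and 2131 units by one probe and 1330, 1436, 481.7 and 1152 by the other. The diabetic array was lowest for both, by 2.51-fold and 2.52-fold against the combination. The diabetic Il1a signal lay below 300 units, where differences are least precise, so the Il1a folds over it are rough. By the mean of the 2 Il1b probes, the combination, metformin and control arrays lay within 1.19-fold of each other. Il18, an interferon-gamma inducer, had 7549, 10460, 5017 and 7322 units in the same order, again lowest in the diabetic liver, with metformin 2.09-fold over it.

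Tnf, Il6 and Il10 were dim. One Tnf probe had 137.4 units with the combination and 193.2 with metformin, and was below background on the diabetic array. Its control spot was an outlier and left out. The other Tnf probe was below background on every array. Il6 passed background only with metformin, at 161.6 units by 1 of its 2 probes and at least 1.40-fold over diabetic, and Il10, which restrains inflammation, passed it nowhere.

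**Figure D2:**
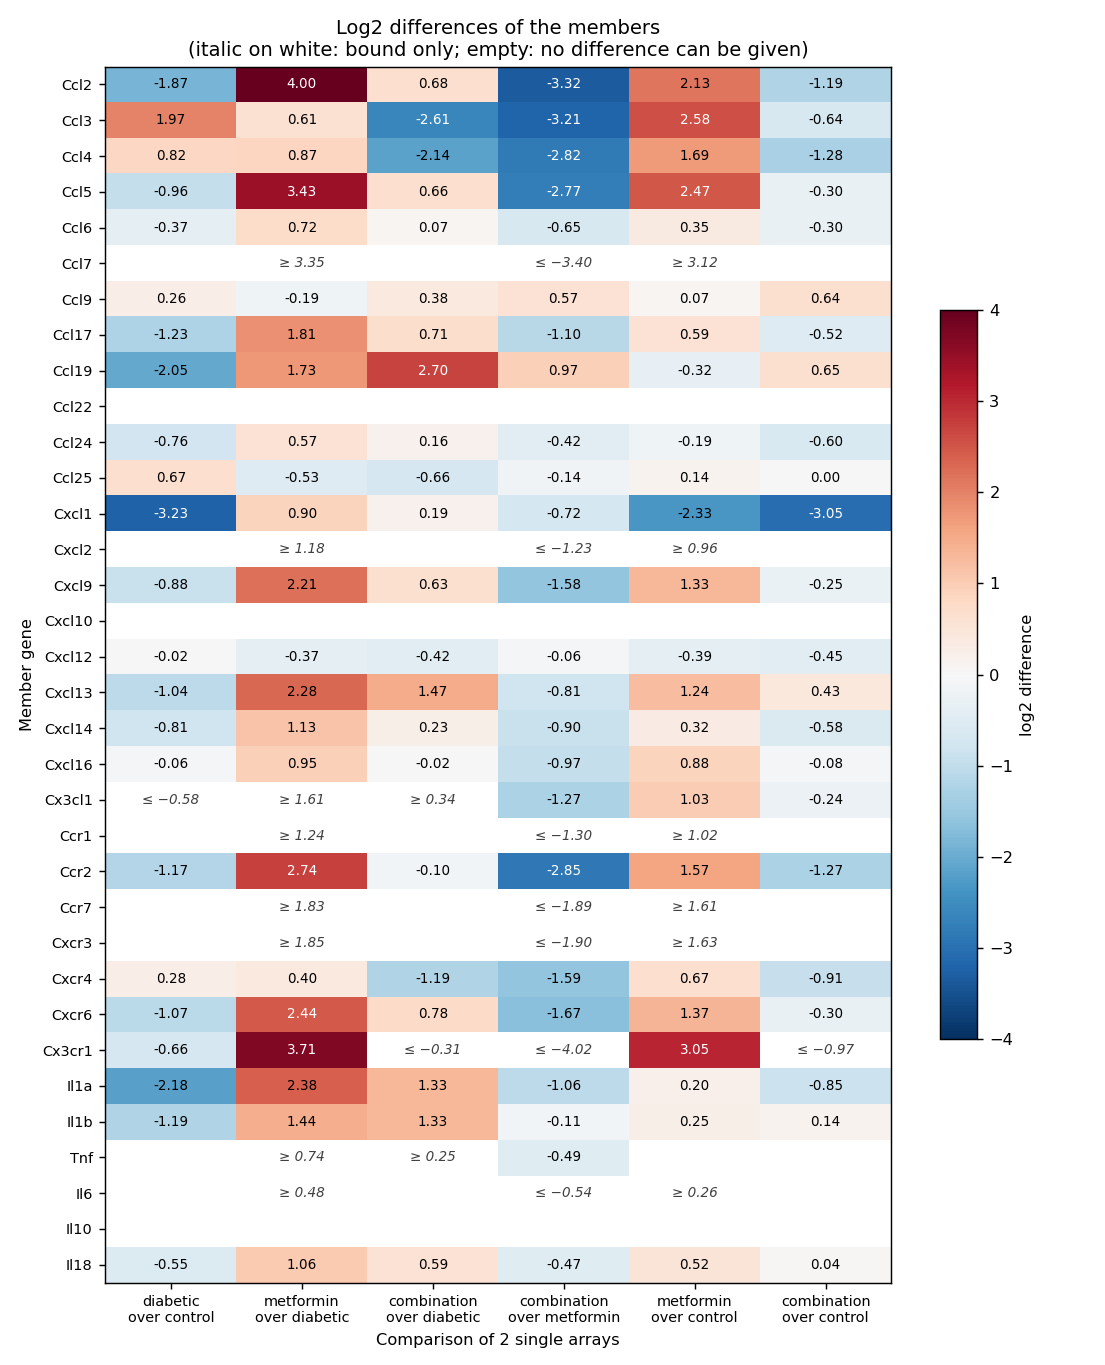
Log2 difference of each member between 2 single arrays (columns, named as the first array over the second), as the mean over its probes above background on both. Red is higher and blue lower on the first-named array, and italic values on white are bounds. The metformin over diabetic column is red for 20 of 23 measured members and the combination over metformin column is mostly blue.

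Diabetic against control liver asks how the disease model differed from natural ageing. Members were mostly lower in the diabetic liver: Cxcl1, Il1a (4.53-fold lower), Ccl19 (4.15-fold), Ccl2 (3.66-fold), Ccl17 (2.34-fold), Il1b (2.28-fold), Ccr2 (2.25-fold), Cxcr6 (2.10-fold) and Cxcl13 were at least 2-fold lower. Of 23 members measured on both arrays these 9 were at least 2-fold lower, against 4.96% of 13475 measured genes. Ccl3 alone was at least 2-fold higher, against 6.81% of genes. The median log2 difference was -0.81 for the members and -0.05 for all genes. Background correction by normexp, a model-based alternative, left 4 lower members: Ccl17, Cxcl13, Ccr2, Cxcr6 and Il1b then fell short of 2-fold. Cxcl13 fell short in 4 of 10 alternatives in all, and Cxcr6 in 2.

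Metformin against diabetic liver asks what the drug changed in the model. Chemokines of monocytes, T cells and lymphoid tissue, 3 receptors and 3 cytokines were higher with metformin, and no measured member was at least 2-fold lower. The 13 members at least 2-fold higher of 23 measured were Ccl2, Cx3cr1, Ccl5, Ccr2, Cxcr6, Il1a (5.22-fold), Cxcl13, Cxcl9, Ccl17, Ccl19 (3.32-fold), Il1b (2.71-fold), Cxcl14 and Il18, against 10.7% of 13900 genes. The share of all genes at least 2-fold lower was 2.52%. The median was 1.13 for the members and 0.03 for all genes. Only Ccl9, Ccl25 and Cxcl12 lay below 0, by at most 0.53 in log2. All genes split into 1492 higher and 350 lower, and into 1229 and 525 by the authors' deposited values, under which 12 members were at least 2-fold higher. Cxcl14 and Il18 each fell short of 2-fold in 3 of 10 alternatives.

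Combination against diabetic liver asks what both agents together changed in the model. Its 4 members at least 2-fold higher were Ccl19, Cxcl13, Il1a and Il1b, of 22 measured, against 4.11% of 14108 genes. The 3 members at least 2-fold lower were Ccl3, Ccl4 and Cxcr4, against 5.67% of genes. The members' median was 0.31 and that of all genes 0.05. Over all genes 580 were higher and 800 lower, and with the 75th percentile of every non-control probe 318 and 1327, with 4 and 3 members and a member median of 0.055. Quantile normalization gave 347 and 1210 genes, again with 4 and 3 members. Cxcr4 fell short of 2-fold in 2 of 10 alternatives and Il1a in 1. The comparisons share arrays, so their results are not independent of each other. Diabetic over control, metformin over diabetic and combination over diabetic all use the single diabetic array. Metformin over diabetic, combination over metformin and metformin over control all use the single metformin array. The control and combination arrays are shared in the same way. A signal particular to 1 array enters every comparison that uses it.

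Combination against metformin liver asks what adding the polysaccharide changed. Most measured members were lower with the combination, and none was at least 2-fold higher. The 11 of 24 at least 2-fold lower were Ccl2, Ccl3 (9.28-fold), Ccl4 (7.07-fold), Ccl5, Cxcl9, Ccl17 (2.15-fold), Cx3cl1, Ccr2 (7.19-fold), Cxcr4, Cxcr6 (3.17-fold) and Il1a (2.08-fold), against 10.6% of 14363 genes. Of all genes 1.69% were at least 2-fold higher. The median was -0.93 for the members and -0.02 for all genes. Ccl9 (0.57) and Ccl19 (0.97) were the 2 members with a log2 difference above 0, and Cxcl12 joined them in 3 alternatives. Il1b differed by 1.08-fold. Il1a fell short of 2-fold in 3 of 10 alternatives, Ccl17 in 2, and Cx3cl1 and Cxcr4 in 1 each.

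Against the control liver, the metformin and combination arrays differed in which members stood apart. With metformin, 10 of 24 measured members were at least 2-fold higher, against 11.1% of 13506 genes: Ccl2, Ccl3 (5.97-fold), Ccl4 (3.22-fold), Ccl5, Cxcl9, Cxcl13 (2.36-fold), Cx3cl1 (2.04-fold), Ccr2 (2.98-fold), Cxcr6 (2.58-fold) and Cx3cr1. Cxcl1 was the 1 member at least 2-fold lower, against 3.53% of genes. With the combination, 4 of 23 were at least 2-fold lower, Ccl2 (2.28-fold), Ccl4 (2.43-fold), Cxcl1 and Ccr2 (2.41-fold), against 5.08% of 13845 genes, and none was at least 2-fold higher, against 5.63%. Member medians were 0.63 for metformin over control and -0.30 for combination over control, with all-gene medians of 0.01 and 0.00. All genes split into 1505 higher and 477 lower for metformin. Centred on the median of probes above background on all 4 arrays, they split into 1131 and 726. By the authors' deposited values they split into 1134 and 703. For the combination they split into 779 and 704 (485 and 1027 with the 75th percentile of every non-control probe, 503 and 910 after quantile normalization). Under these alternatives 9 members were higher and 1 lower for metformin both times, and for the combination 0 were higher and 6 and then 5 lower. Ccl4 fell short of 2-fold for the combination in 1 of 10 alternatives, and Cx3cl1 for metformin fell short of 2-fold in 4 of 9 alternatives.

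**Figure D3:**
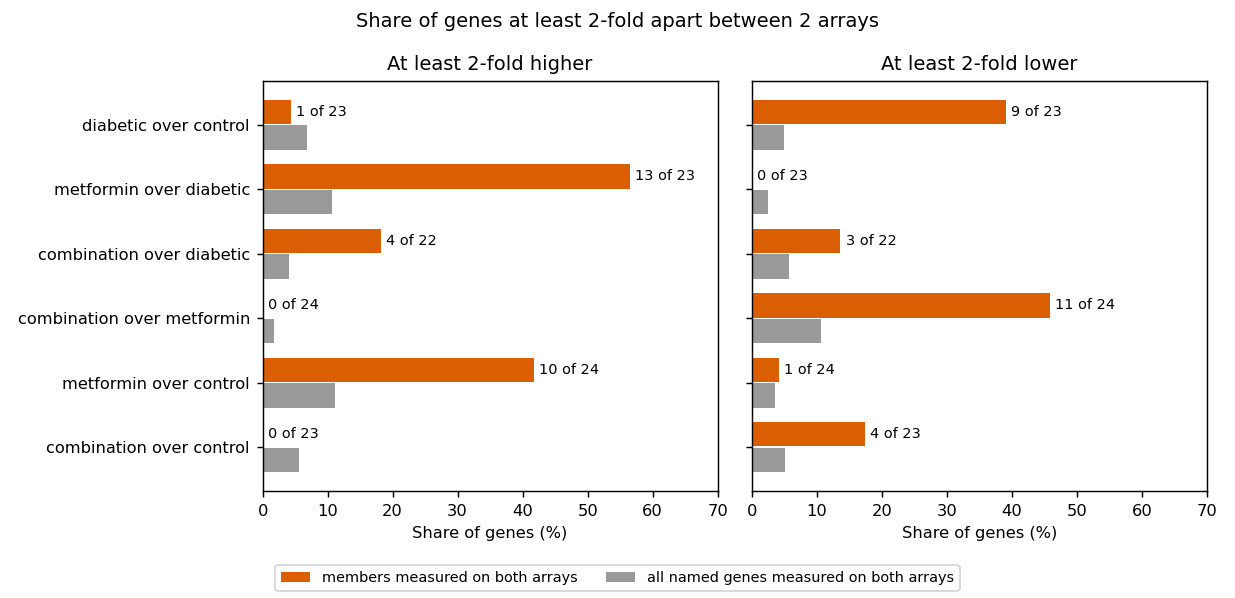
Share (%) of members and of all named genes measured on both arrays that were at least 2-fold higher (left) or lower (right) in each comparison of 2 single arrays. In each comparison the share of members exceeds that of all genes in at least 1 direction. It is larger for metformin over diabetic (13 of 23 higher), combination over metformin (11 of 24 lower) and diabetic over control (9 of 23 lower). It is also larger for metformin over control (10 of 24 higher) and combination over control (4 of 23 lower). For combination over diabetic both sides are larger (4 of 22 higher, 3 lower). For metformin over control the lower side is close (4.17% of members, 3.53% of genes).

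Over the 22 members above background on all 4 arrays, the combination array held the highest value for 2 (Ccl9 and Ccl19), the metformin for 16, the diabetic for 1 (Ccl25) and the control for 3. The combination array held the lowest value for 6, the metformin for none, the diabetic for 14 and the control for 2. Of 12702 genes above background on all arrays, 23.7%, 27.9%, 19.6% and 28.8% were highest on the combination, metformin, diabetic and control arrays. Lowest in the same order were 21.7%, 26.8%, 24.8% and 26.7% of these genes.

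Genes that act with the members were read from lists of the same pathways. Their 2-fold counts, and those of cell markers throughout, stand beside these shares of all genes. For metformin over diabetic 10.7% were at least 2-fold higher and 2.52% lower, and for combination over metformin 1.69% and 10.6%. For diabetic over control the shares were 6.81% and 4.96%, and for combination over diabetic 4.11% and 5.67%. For metformin over control they were 11.1% and 3.53%, and for combination over control 5.63% and 5.08%. Among 16 other chemokine receptors, the eosinophil receptor Ccr3 was 4.34-fold lower with the combination than in the diabetic and 8.33-fold lower than with metformin. Of 9 measured, 2 were at least 2-fold higher for metformin over diabetic with a median of 0.78, and 4 at least 2-fold lower for combination over metformin with a median of -0.85. Among 14 other chemokines, Ccl21a, a Ccr7 ligand like Ccl19 with near-identical copies that can share signal, was 4.84-fold higher with the combination than in the diabetic liver. The platelet chemokines Pf4 and Ppbp were 3.36-fold and 2.20-fold higher there, the only other ones of 5 measured to pass 2-fold, and the median was 1.14.

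Cytokine receptors and antagonists (16 genes) had medians of 0.999 for metformin over diabetic, with 5 of 11 at least 2-fold higher and 1 lower, and of 0.20 for combination over diabetic, with 2 of 13 higher. The interleukin-1 receptor gene Il1r1 was 6.07-fold lower in the diabetic than in the control liver and 3.11-fold higher with the combination than in the diabetic. The interleukin-1 decoy receptor Il1r2 was 3.05-fold higher with metformin than in the diabetic. Inflammasome genes, which process Il1b and Il18, had a median of 1.07 for metformin over diabetic with 4 of 8 at least 2-fold higher, led by the adaptor Pycard (5.18-fold) and the caspases Casp4 (3.66-fold) and Casp1 (2.50-fold). For combination over metformin 3 of 7 were at least 2-fold lower, and Pycard by 3.98-fold.

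Of 26 genes of the NF-kB and toll-like receptor pathway 22 were measured for metformin over diabetic. Of these 4 were at least 2-fold higher (18.2%, against 10.7% of all genes), and the median was 0.27. In diabetic against control liver 4 of 22 were at least 2-fold lower, with Bcl3 5.17-fold lower and Relb 2.67-fold lower, and the median was -0.54. Chemotaxis signalling genes, which relay receptor signals to the cell skeleton, had 8 of 16 at least 2-fold higher for metformin over diabetic (median 1.04), among them Coro1a (3.46-fold) and Was (3.19-fold). For combination over metformin 10 of 18 were at least 2-fold lower (median -1.15). Other cytokines (17 genes) had a median of 0.54 over 6 measured for metformin over diabetic, with Ltb, a lymphocyte cytokine, 4.17-fold higher. In combination against diabetic liver Tnfsf10, a death ligand, was 3.22-fold lower and the median was -0.29.

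Cell markers moved beside these genes. For metformin over diabetic, 7 of 10 T and NK cell markers were at least 2-fold higher with a median of 2.33, and stellate cell and fibroblast markers had a median of 1.33 with 4 of 7 higher. Kupffer cell and macrophage markers had a median of 0.65 with 3 of 13 higher and 2 lower, and hepatocyte markers one of -0.24 with none past 2-fold. For combination over metformin, 9 of 10 T and NK cell markers were at least 2-fold lower (median -1.90), as were 6 of 13 Kupffer cell and macrophage markers (median -0.81). For metformin over control 7 of 11 T and NK cell markers were higher and 1 lower (median 1.15), and for diabetic over control 6 of 10 were lower (median -1.15). Acinar pancreas genes moved as well, with 8 of 9 at least 2-fold higher for metformin over diabetic (median 2.05) and 2 of 3 lower for combination over metformin (median -5.05). The part of these cells in the members' differences was not tested.

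**Figure D4:**
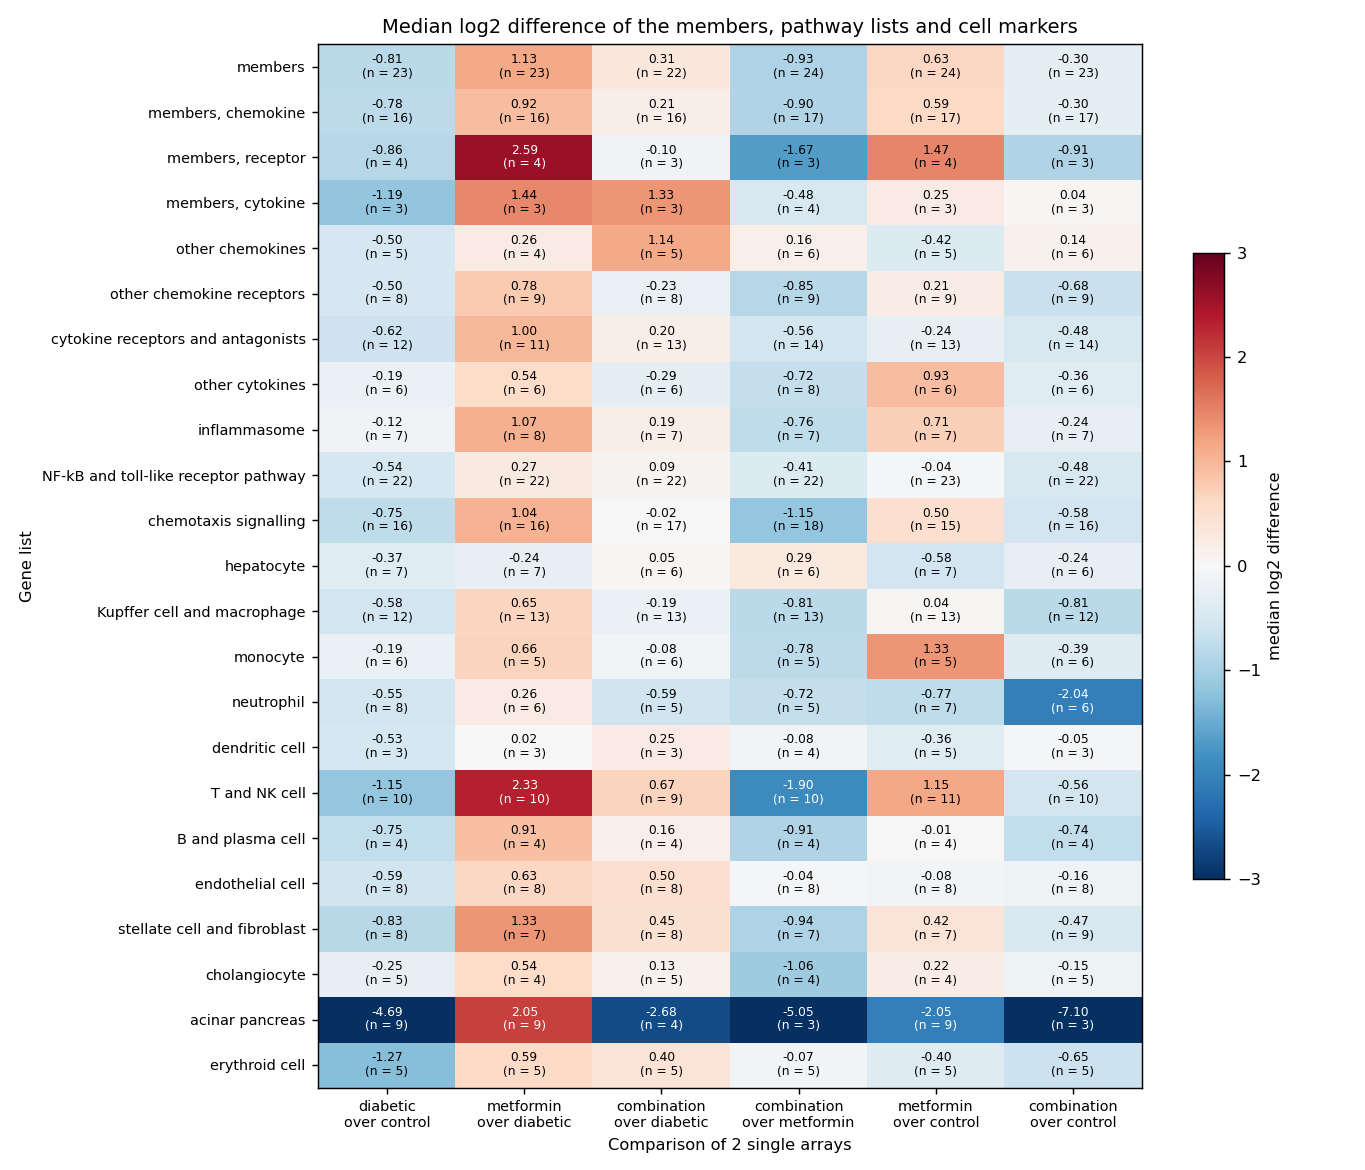
Median log2 difference of the members, of pathway lists and of cell markers without the members, in each comparison of 2 single arrays (columns), with the number of genes measured. Members had medians of 1.13 for metformin over diabetic and -0.93 for combination over metformin, beside 2.33 and -1.90 for T and NK cell markers.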

How the data were processed

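Each array's deposited scanner file holds spot intensity values made, per the file headers, with Feature Extraction 11.5.1.1 (version 10.7 in the submitters' processing notes) on a red-channel 1-colour protocol. The processed signal used here was already background-corrected by the authors' software. The authors' deposited value table holds log2 values, whose exact normalization is not named in the sources used here; they served as an alternative.

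Outlier spots (non-uniform or population) were dropped, spots of a probe averaged, and log2 processed signals set relative to the 75th percentile of 24363 probes above background on all 4 arrays. A probe was above background where at least 50% of its kept spots were marked so. Of 56605 non-control probes 59.7% were named through RefSeq accessions. Gene differences average the probes above background on both arrays. A gene dim on 1 array has only a bound, taken against the higher of its own signal and the lowest signal above background there. Size was read at 2-fold, with no test. Members, gene lists and the named genes (every member, and up to 3 genes furthest from 0 in a list) were chosen with earlier results of these data known. All arrays shared 1 slide and 1 scan, so neither separates the groups. The 10 alternatives are 9 of scaling, background, filters and probes, and 1 added centring. Scripts used Python 3.11.15, pandas 2.3.3 and limma 3.58.1 (normexp, offset 50), were tested on simulated data, and took no arrays out. Some list genes are not reported here.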

Additional observations from a re-analysis of the deposited data

Results flagged for a closer look

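Cxcl10 gave a signal outside the values used: its spot on the metformin array was marked non-uniform and left out, yet it was well above background at 8558 units. The non-uniform spots of the combination and control arrays would give 1847 and 1877 units, and the kept diabetic spot has 1591. If kept, the metformin spot would be 5.38-fold over diabetic, the combination 1.16-fold and the control 1.18-fold. Only 1 of these 4 values comes from a spot the software accepted. Tnf has a like case on the control array, where the left-out spot reads 514.3 units, at least 4.45-fold over the diabetic spot, which was below background.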

How the results depend on the processing

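No member at least 2-fold apart changed direction under any of the 10 alternatives. Smaller differences did: 31 values of 11 members (Ccl6, Ccl9, Ccl24, Ccl25, Cxcl1, Cxcl12, Cxcl14, Cxcl16, Il1a, Il1b and Il18) took the other sign, from reported sizes of at most 0.422 in log2. Of 1383 member values under an alternative, 1186 moved by less than 0.171 in log2, the technical SD of signals from 300 to 3000 units. The counts and medians of members moved as follows, and the cause was not tested unless the alternative shows it. With no filter on background, more members are counted, and 22 were at least 2-fold higher for metformin over diabetic (median 1.614), 18 higher for metformin over control (median 1.239), 19 lower for combination over metformin and 7 lower for combination over control. With outlier spots kept, which adds Cxcl10 and the Tnf control spot, 2 members were lower for metformin over control and the metformin over diabetic median was 1.299. Under normexp 4 were lower for diabetic over control, and the metformin over control median was 0.458. Centring on the median of probes above background on all 4 arrays gave 1 member higher for combination over metformin. The metformin over control median was then 0.456, and the authors' values also gave 1 higher for combination over metformin. The combination over diabetic median was 0.055 with the 75th percentile of every non-control probe and 0.126 after quantile normalization, and the combination over control median was -0.489 with the first of these.

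Over all genes, counts changed by more than 1.5 times with the 75th percentile of every probe (combination over metformin higher 158, against 243) and with the authors' values (377). They also did so under normexp (combination over diabetic higher 383, combination over control higher 500). The same held with the median of probes above background on all 4 arrays (metformin over control lower 726). Leaving out the background filter raised every higher count to between 512 and 3666 and every lower count to between 661 and 3092. The splits beside the comparisons give the rest. The centring on the median difference of all genes was chosen after seeing the data.

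No paired analysis was possible because each group has 1 array and the groups share 1 replicate number only. For the same reason no array was left out. The slide as a block was not run, since there is 1 slide. Signals under 300 units have the least precise differences. On at least 1 array 17 members had such a signal, among them Cx3cr1, whose 13.1-fold rests on 138.4 units in the diabetic liver.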
